A study of Mus musculus with 2 samples.

Results

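Bromodomain genes encode proteins that bind acetylated lysines on histone tails. The 9 genes described here, Brdt, Brd2, Brd3, Brd1, Brpf1, Brpf3, Brd7, Brd9 and Brwd1, were taken by gene symbol from the 23234 genes of the deposited table, and all 9 were found. Their expression was measured by RNA-seq in round spermatids, the haploid male germ cells that follow meiosis, of C57BL/6 mice. One library, called here the library labelled Epc-dKO, is labelled as from mice deficient for both Epc1 and Epc2, and 1 library as from wild-type (WT) mice. The labels give no allele, Cre driver, age or number of animals for either library. The targeted genes both had the higher value under the Epc-dKO label. Epc1 had 13.6 FPKM (fragments scaled by transcript length and library size) in the library labelled Epc-dKO and 11.4 FPKM in the WT library, and Epc2 had 10.5 FPKM in the library labelled Epc-dKO and 7.12 FPKM in the WT library. The FPKM ratio (Epc-dKO over WT) of Epc1 was 1.19, with an interval for counting error alone of 0.963 to 1.48, which holds 1. That of Epc2 was 1.48, with an interval of 1.38 to 1.59. A loss of either gene thus does not show in these gene-level values. Whether a deletion that leaves other exons transcribed would give such values cannot be read from them. The products of both genes belong to NuA4/TIP60, a complex that acetylates histones, and the comparison asks how their loss bears on expression in spermatids.

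In spermatids the histones become heavily acetylated before transition proteins and then protamines replace them. Brdt, the testis-specific member of the BET family, binds acetylated histones through tandem bromodomains and is required in mice for this compaction of the spermatid nucleus. The other BET proteins link acetylated chromatin to transcription, the BRPF proteins hold histone acetyltransferases in their complexes, and Brd7 and Brd9 are subunits of SWI/SNF chromatin remodelers. Brwd1, a protein with WD repeats and bromodomains, is required for male fertility in mice.

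Levels are given in FPKM, fragment numbers divided by the length of the transcript and by the size of the library, so that genes of different length can be compared. Differences are log2 ratios of FPKM + 1, Epc-dKO over WT. With 1 library per genotype there is no replicate check and no test between genotypes; "rose" and "fell" are kept for differences of 2-fold or more on this scale, which understates those of low genes.

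The members shared a CpG-rich start. RefSeq promoter windows of 300 bases (250 before to 50 after each annotated start, GRCm38.p6) were found for all 9 genes, 12 windows in all. They held 14 to 52 CpG dinucleotides with a median of 34, against a median of 7 and quartiles of 3 and 20 over all 32851 windows of the same length. Every gene had at least 1 window with 23 CpGs or more, and 1 of the 3 starts of Brd2 had the lowest count, 14. The bases upstream of the start are shown for Brdt, the testis-specific gene, and for the genes with the lowest and the highest log2 ratio, Brd2 and Brwd1; each CpG is in capitals, and for Brd2 the outermost of the annotated starts was used. The windows are chr5:107330944-107331193 on the plus strand, chr17:34122608-34122857 on the minus strand and chr16:96082429-96082678 on the minus strand, and these GRCm38.p6 coordinates do not apply to mm9, the build named for the expression values.
Brdt: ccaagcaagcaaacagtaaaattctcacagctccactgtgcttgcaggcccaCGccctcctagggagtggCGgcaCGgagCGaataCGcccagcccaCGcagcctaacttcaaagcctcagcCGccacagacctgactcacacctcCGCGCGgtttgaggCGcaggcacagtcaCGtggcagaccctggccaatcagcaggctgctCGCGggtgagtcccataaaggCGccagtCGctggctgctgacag
Brd2: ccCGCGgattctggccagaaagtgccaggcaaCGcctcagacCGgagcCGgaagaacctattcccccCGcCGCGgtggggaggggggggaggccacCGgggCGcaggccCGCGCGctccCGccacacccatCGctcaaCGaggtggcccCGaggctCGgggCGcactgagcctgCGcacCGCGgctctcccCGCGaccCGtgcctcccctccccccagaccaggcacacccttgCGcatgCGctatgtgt
Brwd1: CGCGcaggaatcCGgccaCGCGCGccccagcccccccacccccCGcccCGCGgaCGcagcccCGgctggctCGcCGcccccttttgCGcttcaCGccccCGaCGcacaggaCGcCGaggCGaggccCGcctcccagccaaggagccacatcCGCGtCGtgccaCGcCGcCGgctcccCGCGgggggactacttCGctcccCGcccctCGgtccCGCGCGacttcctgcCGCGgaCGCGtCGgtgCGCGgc
The stretches of 250 bases held 16 CpGs for Brdt, 27 for Brd2 and 42 for Brwd1. The GC box GGGCGG, searched on both strands, was in 10 of the 12 member windows and in 35.7% of all windows. Those 10 windows came from 8 of the 9 genes, and Brdt was the gene without it. The Brdt window held the letters CCAAT and the E-box CACGTG, which were in 37.4% and 7.15% of all windows on either strand and in no window of the other members. Neither the cAMP response element TGACGTCA (1.79% of all windows) nor the TATA box TATAAA (13.6%) was found in a member window. A match describes letters only.

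The order of the 9 levels was the same in both libraries. Brd2 was highest, followed by Brdt, Brd3, Brpf3, Brpf1, Brwd1, Brd9, Brd7 and Brd1. The members ran from 6.37 to 108 FPKM in the library labelled Epc-dKO and from 4.71 to 169 FPKM in the WT library. Brd2 stood at the percentile of 97.0 of expressed genes (mean FPKM of 1 or more) in the library labelled Epc-dKO and at 98.6 in the WT library, and Brd1 at 55.7 in the library labelled Epc-dKO and 47.2 in the WT library, so none of the members was a rare transcript. Close neighbours in the order were Brd3 and Brpf3 in the library labelled Epc-dKO, with an FPKM ratio of 0.988 (Brpf3 over Brd3), and Brwd1 and Brd9 in the WT library, with a ratio of 1.005 (Brwd1 over Brd9).

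**Figure D1:**
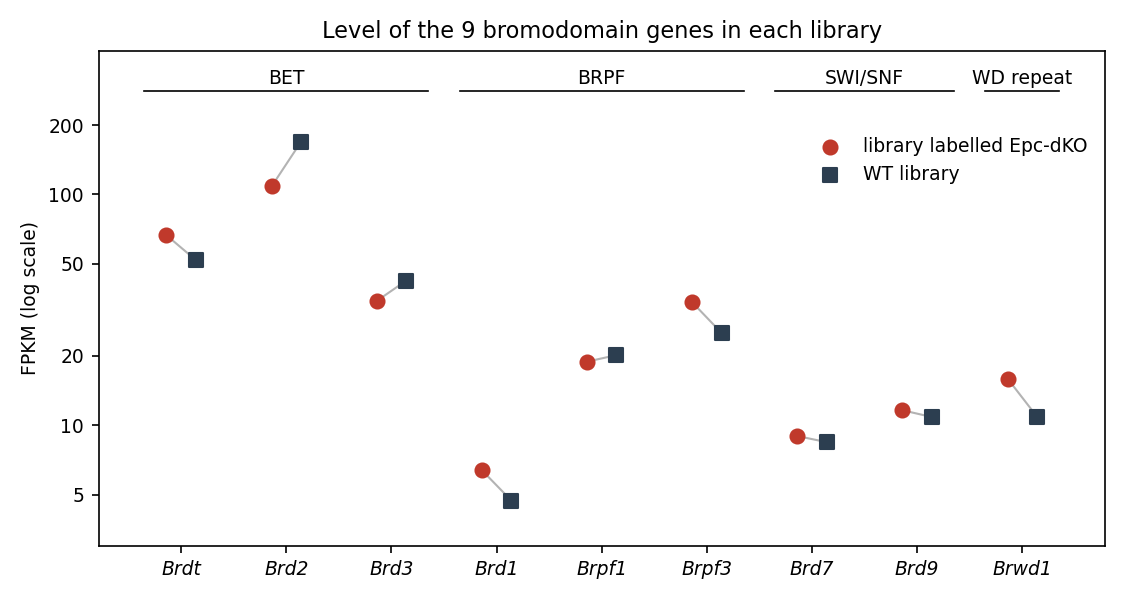
FPKM (log axis) of each of the 9 genes, by protein family, in the library labelled Epc-dKO (circles) and the WT library (squares), 1 library each. Brd2 is highest and Brd1 lowest in both libraries.

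None of the 9 members passed the 2-fold rule in either direction. Over all 10438 expressed genes 4.63% passed, so a count of 0 in 9 genes is near the background. The members' log2 ratios ran from -0.64 to 0.51 with a median of 0.09, against a median of -0.05 over all expressed genes. Of the members 6 lay above 0 and 3 below, and of the 10438 expressed genes 4761 lay above 0 and 5677 below. At 1.5-fold, passed by 18.8% of expressed genes, 1 member passed, Brd2.

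The depth behind these values could be read from the table. Among low genes with a single annotated transcript, FPKM multiplied by transcript length less 200 bases clustered at the worth of 1 fragment, which implies that values were scaled to about 40800000 fragments in the library labelled Epc-dKO and 36900000 in the WT library. On this scale the members rested on about 1044 to 18944 fragments in the library labelled Epc-dKO and 862 to 26786 in the WT library, taking the shortest RefSeq transcript of each gene. The exact 95% interval of the FPKM ratio, which covers counting error only, left out 1 for 7 of the 9 members. It did so for 72.2% of the 8632 expressed genes with a RefSeq length, so this count too is near the background. The spread between animals is not covered by these intervals and was not measured.

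**Figure D2:**
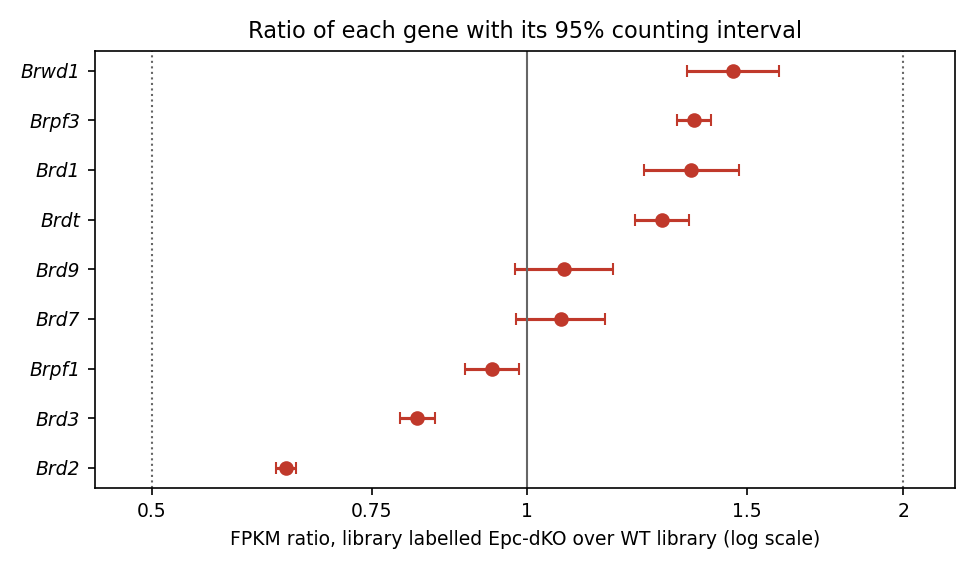
FPKM ratio (log axis), library labelled Epc-dKO over WT library, for each of the 9 genes with its exact 95% counting interval; dotted lines mark 2-fold. All 9 lie between the dotted lines, the intervals of Brd7 and Brd9 hold 1, and Brd2 (0.640) and Brwd1 (1.46) are the extremes.

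Within the BET family, Brdt and Brd2 lay on opposite sides of equality. Brd2, a broadly expressed BET gene, had 108 FPKM in the library labelled Epc-dKO and 169 FPKM in the WT library. Its log2 ratio of -0.64 was the lowest of the members (FPKM ratio 0.640, counting interval 0.629 to 0.652), at the percentile of 9.01 of all expressed genes. Brdt had 66.6 FPKM in the library labelled Epc-dKO and 51.9 FPKM in the WT library, a log2 ratio of 0.35 (FPKM ratio 1.28, interval 1.22 to 1.35). Brd3, another broadly expressed BET gene, had 34.5 FPKM in the library labelled Epc-dKO and 42.3 FPKM in the WT library, a log2 ratio of -0.29 (FPKM ratio 0.816, interval 0.790 to 0.843). Of these 3 genes, Brdt alone had a higher FPKM in the library labelled Epc-dKO.

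Comparisons within a library do not depend on how the libraries were scaled to each other. Brdt had 0.614 times the FPKM of Brd2 in the library labelled Epc-dKO and 0.307 times in the WT library, a 2.00-fold difference between the libraries. Brdt over Brd3 was 1.93 in the library labelled Epc-dKO and 1.23 in the WT library. Brdt made up 31.8% of the summed FPKM of Brdt, Brd2 and Brd3 in the library labelled Epc-dKO and 19.7% in the WT library. Brd2 made up 51.7% in the library labelled Epc-dKO and 64.2% in the WT library, while the share of Brd3 (16.5% in Epc-dKO, 16.1% in WT) differed by less than 1 percentage point. The sum of the 3 genes was 209 FPKM in the library labelled Epc-dKO and 263 FPKM in the WT library, and of the 3 Brd2 had the largest difference in FPKM.

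**Figure D3:**
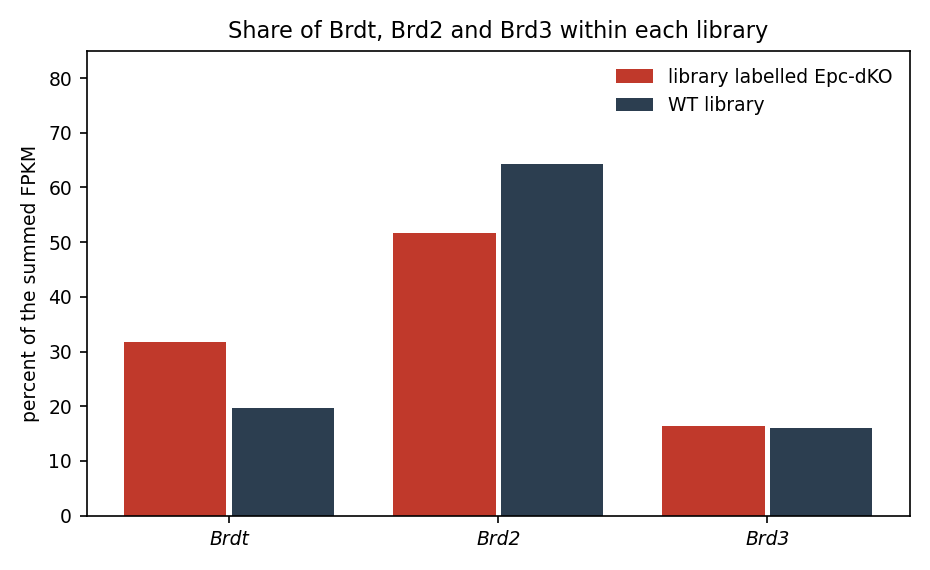
Share of Brdt, Brd2 and Brd3 in their summed FPKM (percent), in the library labelled Epc-dKO (left bars) and the WT library (right bars), 1 library each. Brdt takes 31.8% in the library labelled Epc-dKO and 19.7% in the WT library, and Brd2 takes 51.7% in the library labelled Epc-dKO and 64.2% in the WT library.

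Among the BRPF genes, Brpf3 and Brd1 had a higher FPKM in the library labelled Epc-dKO and Brpf1 a slightly lower one. Brpf3, a scaffold of complexes of the acetyltransferase HBO1, had 34.1 FPKM in the library labelled Epc-dKO and 25.1 FPKM in the WT library, a log2 ratio of 0.43 (FPKM ratio 1.36, interval 1.32 to 1.40). Brd1, also called BRPF2 and likewise known as an HBO1 scaffold, had 6.37 FPKM in the library labelled Epc-dKO and 4.71 FPKM in the WT library, a log2 ratio of 0.37 (FPKM ratio 1.35, interval 1.24 to 1.48). Brpf1, the scaffold of MOZ and MORF complexes, had 18.8 FPKM in the library labelled Epc-dKO and 20.1 FPKM in the WT library, a log2 ratio of -0.09 (FPKM ratio 0.937, interval 0.892 to 0.985). Brpf3 over Brd1 was 5.35 in the library labelled Epc-dKO and 5.33 in the WT library, so this pair kept its proportion, whereas Brpf3 over Brpf1 was 1.81 in the library labelled Epc-dKO and 1.25 in the WT library.

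The SWI/SNF subunits had similar values in both libraries. Brd9, a subunit of the non-canonical BAF complex, had 11.6 FPKM in the library labelled Epc-dKO and 10.8 FPKM in the WT library, a log2 ratio of 0.09 (FPKM ratio 1.07, interval 0.977 to 1.17). Brd7, a subunit of the PBAF complex, had 8.97 FPKM in the library labelled Epc-dKO and 8.43 FPKM in the WT library, a log2 ratio of 0.08 (FPKM ratio 1.06, interval 0.979 to 1.15). These were the members whose difference was within counting error, at 884 fragments or more per library; with libraries rescaled to a median ratio of 1, their intervals left out 1 and that of Brpf1 held it. Brd9 over Brd7 was 1.29 in both libraries.

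Brwd1 had the highest log2 ratio of the members. It had 15.9 FPKM in the library labelled Epc-dKO and 10.9 FPKM in the WT library, a log2 ratio of 0.51 (FPKM ratio 1.46, interval 1.34 to 1.59), at the percentile of 89.9 of all expressed genes. Brwd3, its X-linked paralog and not one of the 9, had 3.09 FPKM in the library labelled Epc-dKO and 4.61 FPKM in the WT library, a log2 ratio of -0.46. Brwd1 over Brwd3 was 5.15 in the library labelled Epc-dKO and 2.36 in the WT library.

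The loci of 7 of the 9 members, all but Brd1 and Brd7, overlap other annotated genes in GENCODE M21, and the strand setting of the authors' counting is not given in the sources used here. For 6 of the 9 genes, all but Brd3, Brd1 and Brd7, at least 1 overlapping gene lies on the opposite strand. Of these, H2-DMa, an antigen-processing gene that overlaps Brd2, had a row in the table, with 5.59 FPKM in the library labelled Epc-dKO and 12.3 FPKM in the WT library. Its level was below that of Brd2 in both libraries and, as for Brd2, lower under the Epc-dKO label. The part of this overlap in the Brd2 difference was not tested.

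The other bromodomain genes spread on both sides of the members. Of a list of 30, 26 were expressed; 1 rose, against 2.75% of all expressed genes, and 0 fell, against 1.88%. Their median log2 ratio was 0.12, with 15 above 0 and 11 below. Baz2b, a gene of the BAZ family, rose to 16.6 FPKM in the library labelled Epc-dKO, against 6.11 FPKM in the WT library (log2 ratio 1.31). Bptf, a subunit of the NURF remodeler named after its values were seen, had 20.7 FPKM in the library labelled Epc-dKO and 11.3 FPKM in the WT library, a log2 ratio of 0.82. Taf1, a TFIID subunit encoded on the X chromosome, had 1.76 FPKM in the library labelled Epc-dKO and 3.86 FPKM in the WT library, a log2 ratio of -0.82. Taf1 and Brwd3 are the X-linked genes of the list, and the median over the 279 expressed genes on the X was -0.47; all 9 members are autosomal.

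The most abundant of these genes were Smarca2, an ATPase of SWI/SNF, with 133 FPKM in the library labelled Epc-dKO and 120 FPKM in the WT library, and Trim28, the KAP1 corepressor, with 115 FPKM in the library labelled Epc-dKO and 132 FPKM in the WT library. By distance of log2(FPKM + 1) over both libraries, the genes closest to Brdt were Smarca4 (0.55), the alternative SWI/SNF ATPase, Trim24 (0.84), a transcription cofactor, and Baz2a (1.004), a subunit of the nucleolar remodeling complex. A likeness over 2 libraries is mostly one of level, and Smarca4 had the opposite sign of Brdt, a log2 ratio of -0.39.

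**Figure D4:**
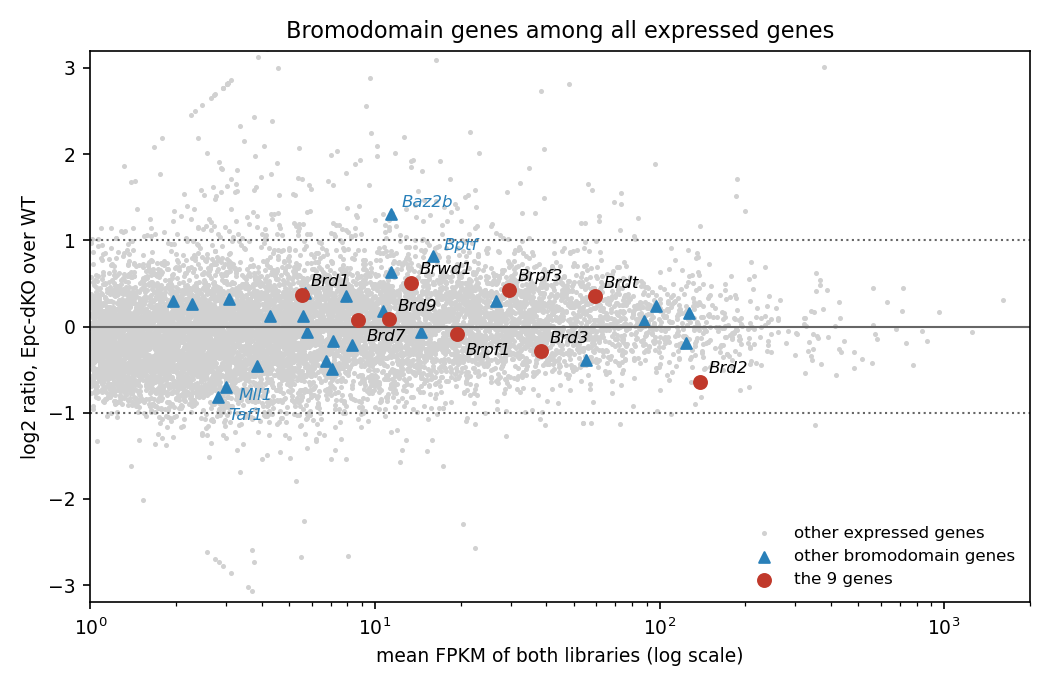
Log2 ratio (Epc-dKO over WT) against mean FPKM (log axis) for the 9 genes, the other expressed bromodomain genes and all other expressed genes; 77 genes beyond 3.2 in size are not drawn, and dotted lines mark 2-fold. The 9 genes lie between the dotted lines, and Baz2b (1.31) is the bromodomain gene outside them.

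Genes of proteins that act with the members were mostly within 2-fold. Of 9 genes of MOZ, MORF and HBO1 complexes, 1 fell, against 1.88% of all expressed genes, and 0 rose, against 2.75%; their median log2 ratio was -0.02. The one that fell was Phf15 (now Jade2), a scaffold that competes with BRPF proteins for HBO1, with 1.36 FPKM in the library labelled Epc-dKO and 4.02 FPKM in the WT library (log2 ratio -1.09). Its X-linked paralog Phf16 (now Jade3) had 2.01 FPKM in the library labelled Epc-dKO and 4.57 FPKM in the WT library (-0.89). The autosomal paralog Phf17 (now Jade1) had 1.20 FPKM in the library labelled Epc-dKO and 2.36 FPKM in the WT library (-0.61). All 3 Jade genes thus lay below 0, at levels of 4.57 FPKM or less, as did 5677 of the 10438 expressed genes at any level. Phf17 was added after its values were seen, and the median over the 279 expressed X-linked genes, which include Phf16, was -0.47. The abundant genes of this list differed little. Meaf6, a subunit common to these complexes, had 32.5 FPKM in the library labelled Epc-dKO and 27.3 FPKM in the WT library (0.25), and Myst2, the HBO1 gene, had 22.4 FPKM in the library labelled Epc-dKO and 22.6 FPKM in the WT library (-0.02).

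Of 25 SWI/SNF partner genes found, 20 were expressed and 0 passed 2-fold, against 4.63% of all expressed genes, with a median log2 ratio of -0.11. Dpf3, an accessory subunit gene, had 15.3 FPKM in the library labelled Epc-dKO and 29.3 FPKM in the WT library (-0.89), and Smarcc2, a core subunit gene, had 96.6 FPKM in the library labelled Epc-dKO and 67.7 FPKM in the WT library (0.51). All 7 genes of P-TEFb, the elongation kinase that BET proteins recruit, and its inhibitory complex were expressed and 0 passed, with a median of -0.10. Larp7, which holds the inhibitory 7SK RNA, had 154 FPKM in the library labelled Epc-dKO and 130 FPKM in the WT library (0.24). Mepce, the 7SK capping enzyme gene, had 23.4 FPKM in the library labelled Epc-dKO and 35.4 FPKM in the WT library (-0.57). The inhibitor gene Hexim2 had 3.28 FPKM in the library labelled Epc-dKO and 1.75 FPKM in the WT library (0.64).

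The list of transition protein and protamine genes included larger differences than any member. Of 5 genes, 4 rose, against 2.75% of all expressed genes, and 0 fell. The log2 ratios were 3.01 for Prm2, 2.82 for Prm1, 1.89 for Tnp2 and 1.84 for Tnp1, and -0.45 for Prm3. Levels ran from 11.5 FPKM (Prm3) to 675 FPKM (Prm2) in the library labelled Epc-dKO. In the WT library they ran from 11.2 FPKM (Prm1) to 82.8 FPKM (Prm2). Prm1 rested on about 933 fragments in the library labelled Epc-dKO and 111 in the WT library. Tnp1 rested on about 530 (Epc-dKO) and 128 (WT). The transcripts are short, 410 nt (Prm3) to 621 nt (Prm2), and all but Tnp1 lie on chromosome 16. The part of length in these differences was not tested.

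**Figure D5:**
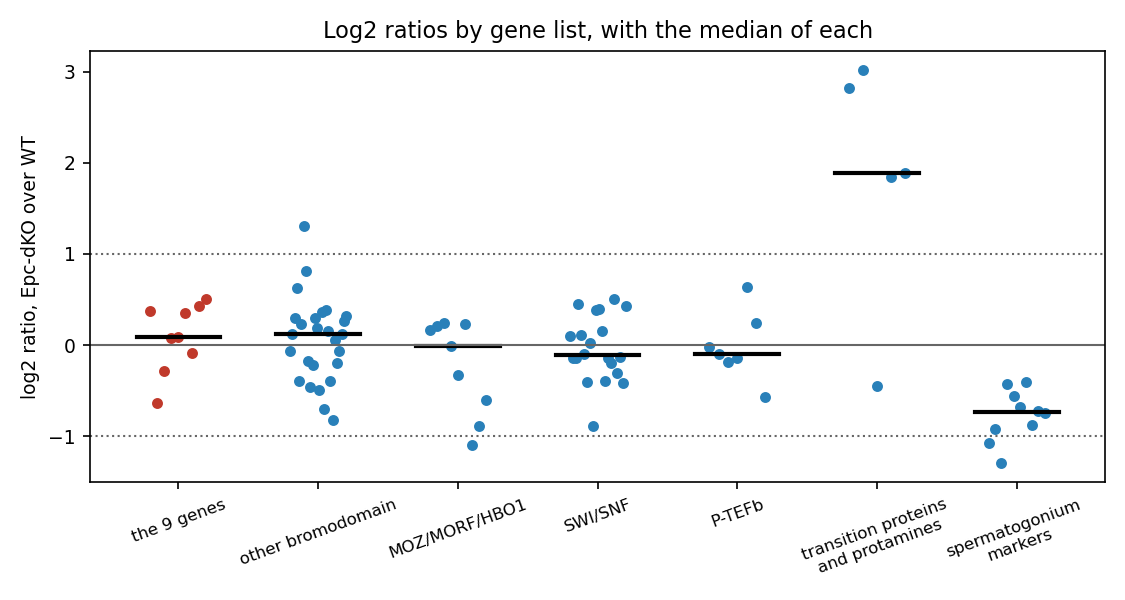
Log2 ratio (Epc-dKO over WT) of each expressed gene, 1 point per gene, in the 9 genes and 6 other lists; black bars are list medians and dotted lines mark 2-fold. The median of the 9 genes is 0.09, that of transition proteins and protamines 1.89 and that of spermatogonium markers -0.73.

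Cell type markers were also read in both libraries. All 14 round spermatid markers were expressed and summed to 1906 FPKM in the library labelled Epc-dKO and 894 FPKM in the WT library. Of these 5 rose, against 2.75% of all expressed genes, and 0 fell, against 1.88%. Their median log2 ratio was 0.70, and 12 were above 0, against 4761 of the 10438 expressed genes. Among the 14 are Tnp1, Tnp2, Prm1 and Prm2. The other 10 had a median log2 ratio of 0.10, with 8 above 0 and 2 below. They summed to 939 FPKM in the library labelled Epc-dKO and 745 FPKM in the WT library. Of these 10, 1 rose, the spermatid kinase gene Tssk6, with 6.51 FPKM in the library labelled Epc-dKO and 2.55 FPKM in the WT library. The 10 spermatocyte markers summed to 373 FPKM in the library labelled Epc-dKO and 388 FPKM in the WT library, with none at 0. The 12 spermatogonium markers summed to 18.6 FPKM in the library labelled Epc-dKO and 40.7 FPKM in the WT library. All 10 that were expressed had a log2 ratio below 0, as did 5677 of the 10438 expressed genes. The 9 Sertoli cell markers found summed to 7.01 FPKM (Epc-dKO) and 12.0 FPKM (WT), the 6 Leydig cell markers to 22.3 FPKM (Epc-dKO) and 29.8 FPKM (WT), and the 5 peritubular cell markers to 6.54 FPKM (Epc-dKO) and 11.4 FPKM (WT). Of the Leydig cell markers 1 fell, Insl3, with 6.79 FPKM (Epc-dKO) and 14.9 FPKM (WT), a log2 ratio of -1.03. The median of the 5 expressed Leydig cell markers was -0.03, with 2 above 0 and 3 below. Fshr in the WT library was the one marker listed at 0. The part of these marker levels in the members' differences was not tested, and fewer cells of a type cannot be told apart from less RNA per cell.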

How the data were processed

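RNA-seq of round spermatids was given as 1 table of FPKM deposited by the authors, with 1 column per genotype and 23235 rows, of which 1 held library codes and no gene. Cufflinks 2.2.1 and the build mm9 are named, per the submitters' processing notes; which aligner, annotation and strand setting were used is not given in the sources. Per the labels' protocols, the library kit was directional and libraries were amplified by PCR.

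Log2 ratios used a pseudocount of 1, and genes whose mean FPKM reached 1 were called expressed. No test between single libraries was possible. The worth of 1 fragment was found from genes longer than 800 nt with a single transcript in GENCODE M21: at the best length offset, 200 bases in both libraries, 104 of 191 genes near the step in the library labelled Epc-dKO and 116 of 202 in the WT library lay within 0.5% of it. Fragment numbers for members used RefSeq-matched transcript lengths and are approximate for genes with several transcripts. Counting intervals are exact (Clopper-Pearson on fragments) and do not cover PCR duplicates or animals. Simulated data with known answers were used to test the step search and the 2-fold calls.

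The members, gene lists and rules were chosen with earlier results of these data known; named genes are the 9 members, Epc1, Epc2, the genes nearest to Brdt, the transition protein and protamine genes, and the most abundant, the most different and every gene past 2-fold in each other list; not all of these are printed, and 1 gene is not reported here. Brwd3, Bptf, H2-DMa and Phf17 are outside this rule and were chosen after their values were seen. Alternatives were pseudocounts of 0.1 and 0.5, no minimum or a minimum of 5, rescalings, a 1.5-fold rule and shares on the log scale. Software was Matplotlib 3.10.9, SciPy 1.17.1, pandas 2.3.3, NumPy 2.4.6 and Python 3.11.15.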

Additional observations from a re-analysis of the deposited data

How the results depend on the processing

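No member changed sign or passed 2-fold in any of 36 combinations of member and rescaling, and none passed with another pseudocount; Brd2 ran from -0.68 to -0.58, Brdt from 0.31 to 0.41 and Brwd1 from 0.47 to 0.56. The rescalings multiplied the Epc-dKO values, relative to WT, by 0.968 to 1.04. Factors this near 1 could not change the sign of any member or bring it to 2-fold. Another pseudocount cannot change a sign, and a minimum cannot change a member's ratio. The 1.5-fold rule is looser by construction, and 18.8% of all expressed genes passed it. It was passed by 1 of 9 members and 5 of 26 other bromodomain genes. In the partner lists, 3 of 9 MOZ, MORF and HBO1 genes, 1 of 20 SWI/SNF genes and 1 of 7 P-TEFb genes passed it. On the TPM scale and with a pseudocount of 0.1, 2 other bromodomain genes (Baz2b and Taf1) and 2 MOZ, MORF and HBO1 genes (Phf15 and Phf16) passed, as did these 2 with a pseudocount of 0.5; with a minimum mean FPKM of 5, which leaves out Phf15, 0 of that list passed. Without Brd2 the median of the members was 0.22. Shares of log2(FPKM + 1), which compress high values, put Brdt at 14.7% of the members in the library labelled Epc-dKO and 14.1% in the WT library, and at 33.8% of Brdt, Brd2 and Brd3 in the library labelled Epc-dKO and 30.8% in the WT library. With libraries rescaled to a median ratio of 1, an alternative to the counting intervals chosen after seeing the data, the interval of Brpf1 held 1 and those of Brd7 and Brd9 did not. Of the 10438 expressed genes, 287 were higher and 196 lower as deposited, 433 and 652 with a pseudocount of 0.1, 346 and 364 with 0.5, and 837 and 1127 at 1.5-fold. With a minimum of 5, 166 were higher and 105 lower of 5328 genes, and on the TPM scale, where the minimum of 1 is applied to other values, 545 and 1054 of 15151. No paired analysis was possible because there was a single library of either genotype, and no replicate could be left out.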
